A study of Mus musculus with 15 samples.

Results

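The nuclear receptors of mouse liver were followed here as 33 genes of the 35275 in the deposited tables. They were chosen by gene name from a written list of receptors, with the clock receptors, Hnf4a and Nr5a2 left out, and the naming rule uses no measured value, although the list was drawn up with earlier results of these data known. Livers of C57BL/6 mice under 3 feeding regimens were sequenced, with 5 RNA-seq libraries per regimen. EOD stands for every-other-day fasting, in which food was withheld for 24 h, IF16 for a daily fast of 16 h, and AL for free access to food. All 3 groups kept their regimen for 3 months, between 3 and 6 months of age, and the left lateral lobe was sampled and its mRNA taken with poly-T beads. The labels give neither the hour of sampling nor the time since the last meal, and they do not state that each library is a separate mouse. The p-values hence rest on library-to-library spread, which may be partly technical.

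Nuclear receptors are transcription factors that are switched by small lipophilic ligands, among them fatty acids, bile acids, oxysterols, retinoic acid, thyroid hormone and steroids. Many of them bind DNA as a heterodimer with a retinoid X receptor (RXR), and they exchange corepressor complexes for coactivators once a ligand is bound. In liver they set programmes of fatty acid oxidation, ketone production, lipid synthesis, bile acid turnover and drug metabolism, and several respond to fasting and feeding.

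Library totals ran from 28129883 to 38147534 counts, so that 3 counts correspond to 0.078 to 0.107 CPM (read counts scaled to the size of the library, with TMM normalisation between libraries). AL replicates 4 and 5 stood apart by acute phase transcripts. The 13 acute phase genes summed to 7940 to 9890 CPM in EOD, 6810 to 8810 CPM in IF16 and 6110 to 38000 CPM in AL, where replicate 4 stood at 24600 CPM and replicate 5 at 38000 CPM. Of these 13 genes 9 were lower in EOD than in AL and 1 in IF16 than in AL, and none was lower without these 2 AL libraries, when 3 were higher in EOD and 2 in IF16. Where removing them changed a call of a receptor, both values are given. The mitochondrially encoded share was 6.887% ± 1.869 in EOD, 10.38% ± 1.114 in IF16 and 11.49% ± 2.159 in AL (SD, n = 5 each), and EOD replicate 5 stood at 10.08%. The 9 hepatocyte markers found in the table summed to 88800 to 118000 CPM in EOD, 106000 to 136000 CPM in IF16 and 89600 to 109000 CPM in AL, with none at 0. The 11 markers of sinusoidal endothelium summed to 277 to 339 CPM in EOD, 274 to 321 CPM in IF16 and 134 to 232 CPM in AL. AL replicates 4 and 5 were at the low end, with 146 and 134 CPM. Of these 11 markers, 8 were higher in EOD and 6 in IF16 than in AL (8 and 5 without AL replicates 4 and 5). Of all tested genes, 17.6% were higher in EOD and 1.4% higher in IF16. The part of these markers in the receptor results was not tested. In bulk tissue, fewer cells of a type and less RNA per cell cannot be told apart.

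The sequences just upstream of the start sites are shown for 5 receptors. Ppara, Nr1i3 and Nr0b2 are the receptors with the largest increases under EOD, and Nr4a1 and Nr4a2 have the largest standard errors of the log2 fold change among the tested receptors. Each is the run of 250 bases before the RefSeq start on GRCm38.p6, read 5′ to 3′ along the gene. Capitals mark TGACG or its complement CGTCA, the core of the cAMP response element, in Ppara, Nr4a1 and Nr4a2. They mark the E-box CACGTG in Nr1i3, and CACGTG and the TATA element TATAAA in Nr0b2. The marked matches do not overlap each other.
Ppara: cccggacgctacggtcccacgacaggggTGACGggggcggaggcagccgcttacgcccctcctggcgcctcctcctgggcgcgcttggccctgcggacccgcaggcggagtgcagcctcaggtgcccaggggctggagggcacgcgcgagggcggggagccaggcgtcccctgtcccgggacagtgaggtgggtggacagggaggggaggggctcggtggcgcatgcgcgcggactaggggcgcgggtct
Nr1i3: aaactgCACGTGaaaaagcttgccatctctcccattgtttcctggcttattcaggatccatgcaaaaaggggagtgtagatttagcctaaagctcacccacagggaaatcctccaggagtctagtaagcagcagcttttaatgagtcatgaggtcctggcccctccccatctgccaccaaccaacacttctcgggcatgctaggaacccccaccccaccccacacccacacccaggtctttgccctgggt
Nr0b2: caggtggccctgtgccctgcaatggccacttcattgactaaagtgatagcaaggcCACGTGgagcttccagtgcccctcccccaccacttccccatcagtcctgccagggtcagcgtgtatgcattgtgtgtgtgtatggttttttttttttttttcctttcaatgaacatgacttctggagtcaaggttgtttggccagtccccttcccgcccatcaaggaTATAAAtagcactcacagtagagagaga
Nr4a1: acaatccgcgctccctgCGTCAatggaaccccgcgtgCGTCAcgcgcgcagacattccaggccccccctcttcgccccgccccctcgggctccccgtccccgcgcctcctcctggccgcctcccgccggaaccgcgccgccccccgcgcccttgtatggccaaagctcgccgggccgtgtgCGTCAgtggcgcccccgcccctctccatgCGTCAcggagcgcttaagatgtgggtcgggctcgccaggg
Nr4a2: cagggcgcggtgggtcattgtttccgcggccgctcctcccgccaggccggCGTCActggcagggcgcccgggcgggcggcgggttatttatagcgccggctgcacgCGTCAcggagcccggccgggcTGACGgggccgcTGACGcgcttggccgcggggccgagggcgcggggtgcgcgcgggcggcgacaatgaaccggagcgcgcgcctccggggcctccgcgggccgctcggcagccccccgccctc
The windows lie at chr15:85735526-85735775 on the plus strand for Ppara, chr1:171213720-171213969 on the plus strand for Nr1i3 and chr4:133553126-133553375 on the plus strand for Nr0b2. Those of the NR4A pair lie at chr15:101266596-101266845 on the plus strand for Nr4a1 and chr2:57124004-57124253 on the minus strand for Nr4a2. The RefSeq start of Ppara is 793 bases downstream of the start in the deposited table, so that its window lies inside the tabulated gene. Motifs were counted on both strands in 32851 RefSeq mouse windows, each the 250 bases before the start, as in the runs shown. TGACG was found in 17.8% of these windows, and 4 or more copies in 0.137% of them. The windows of Nr4a1 and Nr4a2 hold 4 copies each, and that of Nr4a2 also holds TATAAA on the opposite strand, left in lower case. The windows of Nr4a1 and Nr4a2 are 74.4% and 80.0% G or C, and the share over all windows was not matched for this. CACGTG was found in 6.0% of all windows and TATAAA in 12.4%. Among the 30 receptors with an entry, 9 had TGACG in a window, 4 had CACGTG and 5 had TATAAA. The hormone receptor core hexamer AGGTCA was found in 14% of all windows and near the starts of 7 of the 30 receptors with an entry, which have 47 windows between them, so that a receptor with several windows has more chances of a match (Nr1h4, Nr6a1, Pparg, Rarg, Rxra, Rxrg and Thrb). Nr3c1, Thra and Hnf4g had no entry. A match describes letters in a window and says nothing of binding.

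Of the 33 receptors, 30 reached a mean of 1 CPM or more over the 15 libraries. The exceptions were Nr2f1 (COUP-TFI) at 0.693 CPM, Hnf4g at 0.0845 CPM and Vdr, the vitamin D receptor, at 0.026 CPM, with 13 counts of Vdr in all libraries together. Nr4a2, at 1.25 CPM over all libraries, reached this level through AL, with 2.11 CPM in AL, 0.814 CPM in EOD and 0.818 CPM in IF16. Levels between genes were compared as FPKM, which is scaled by gene length. A mean of 1 FPKM or more was reached by 24 receptors. Nr1h4, the bile acid receptor FXR, had the highest mean at 57.7 FPKM. It was followed by the oxysterol receptor Nr1h3 (LXR alpha) at 50.5 FPKM and by Rxra at 49.4 FPKM. Nr0b2 (SHP), which lacks a DNA-binding domain and represses other receptors, stood at 41.8 FPKM. The xenobiotic receptors Nr1i3 (CAR) and Nr1i2 (PXR) stood at 36.9 and 36.8 FPKM. These 6 receptors stood apart from the next, Esrra at 16.7 FPKM, an orphan receptor of mitochondrial gene programmes. Among the leading receptors the spread between libraries was about as large as the gap between neighbours. In AL, Nr1h4 averaged 60.5 ± 8.22 FPKM, Rxra 53.5 ± 4.66 FPKM and Nr1h3 48.7 ± 1.74 FPKM (SD, n = 5). In EOD the highest mean was that of Nr0b2 at 55.7 ± 9.87 FPKM, next to Nr1h3 at 54.6 ± 4.37 FPKM and Nr1h4 at 48.4 ± 8.48 FPKM. The 3 RXR genes together gave 62.4 ± 14.7 FPKM in EOD, 59.5 ± 9.71 FPKM in IF16 and 65.2 ± 4.19 FPKM in AL. Their 15 partner receptors together gave 230 ± 22.5 FPKM in EOD, 243 ± 6.31 FPKM in IF16 and 217 ± 26.1 FPKM in AL, so that partner transcripts exceeded RXR transcripts in every group.

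**Figure D1:**
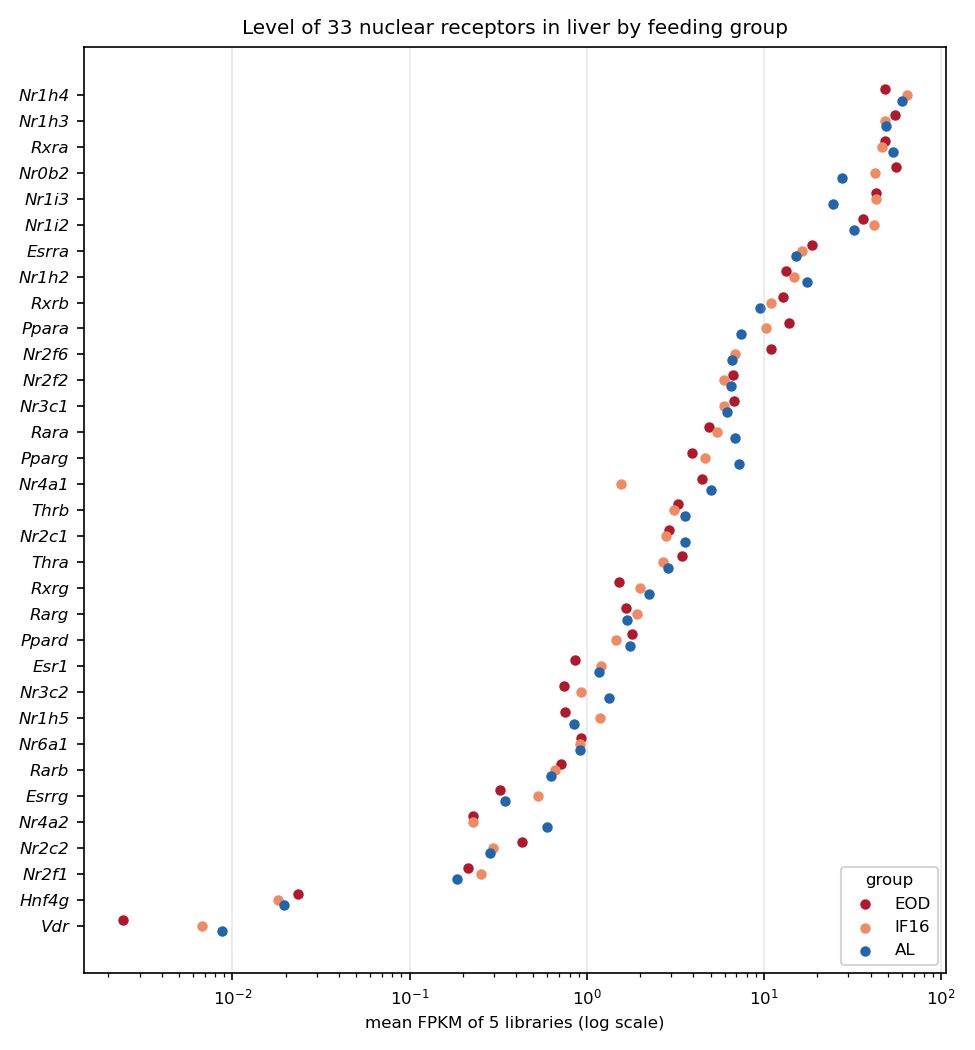
Mean FPKM of the 33 receptors (log axis, 1 row per gene, ordered by the mean over all libraries) in EOD, IF16 and AL, 5 libraries each. Nr1h4, Nr1h3 and Rxra lead at 57.7, 50.5 and 49.4 FPKM, and Hnf4g and Vdr lie below 0.1 FPKM.

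The first comparison asked how every-other-day fasting changed the receptors relative to free feeding. Receptors went both ways in EOD. The regulator of fatty acid oxidation Ppara, the xenobiotic receptor Nr1i3 and the repressor Nr0b2 were higher, with Rxrb, Nr2f6 and Nr2c2. The fat storage receptor Pparg, the mineralocorticoid receptor Nr3c2 and the orphan Nr4a2 were lower, with Rara, Rxrg, Nr1h2 and Nr1h4. Of the 31 receptors with enough counts to be tested, 13 passed (6 higher and 7 lower, 41.9%), against 35.2% of all 13837 genes tested in this comparison, so the receptors' share was near that of all genes. Higher and lower calls each made up 17.6% of all genes. EOD and AL libraries did not overlap for 4 receptors (Ppara, Rxrb, Nr1h2 and Nr3c2), against 18.6% of all genes. The changes were moderate. The median size of the log2 fold change was 0.30 over the 31 receptors and 0.33 over all genes, and 2 of the 13 called receptors (Nr4a2 and Nr0b2) changed by 2 fold or more. Adjusted p-values are from edgeR's quasi-likelihood test with Benjamini-Hochberg adjustment over all tested genes, with a threshold of 0.05.

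**Figure D2:**
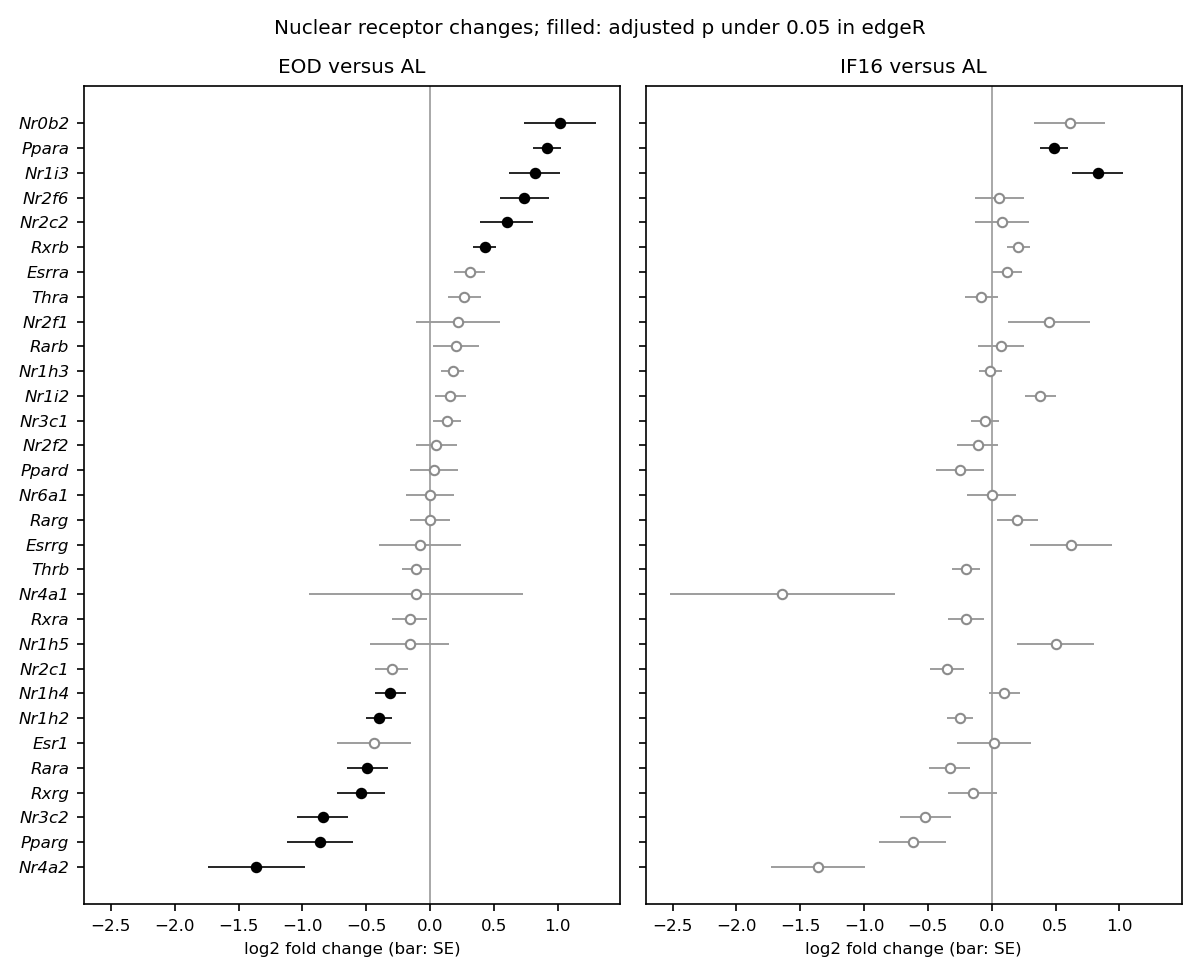
Log2 fold change with its SE for the 31 tested receptors in EOD versus AL (left) and IF16 versus AL (right), 5 libraries per group, ordered by the EOD change. Filled points passed at an adjusted p under 0.05, 13 on the left and 2 on the right, and both comparisons share the AL libraries.

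Ppara, the fatty acid receptor that switches on oxidation and ketone production in fasting (chromosome 15, 85734983 to 85802819, mm10), was the receptor with the smallest p. Its level was 50.4, 45.2, 48.2, 49.5 and 42.4 CPM in the EOD libraries, 34.3, 37.6, 34.2, 34.1 and 35.7 CPM in the IF16 libraries, and 28.5, 30.7, 24.2, 18.4 and 23.1 CPM in the AL libraries. Every EOD library lay above every IF16 library, and every IF16 library above every AL library. Ppara rose 1.89 fold in EOD against AL (log2 fold change 0.92, SE 0.11, adjusted p = 1.93e-05) and kept its call in all 25 alternative settings. Without AL replicates 4 and 5 the change was 0.79 (adjusted p = 0.000117).

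Pparg, better known for lipid storage in fat cells, moved the other way (chromosome 6, 115361221 to 115490401). It was at 8.39, 8.29, 8.03, 5.40 and 6.52 CPM in EOD, 8.83, 11, 10.2, 6.27 and 6.91 CPM in IF16, and 19.9, 18.3, 12.2, 9.78 and 6.21 CPM in AL. The AL libraries were spread over a wide range that reached into the EOD values. Pparg was lower in EOD (log2 fold change -0.86, SE 0.26, adjusted p = 0.0182), but no longer passed with AL replicate 1 left out (-0.64, adjusted p = 0.0602) or AL replicate 2 left out (-0.72, adjusted p = 0.0518). With AL replicates 4 and 5 removed it was -1.17 (adjusted p = 0.000699). Ppard, the widely expressed remaining member of the family, averaged 5.73 ± 1.90 CPM in EOD, 4.73 ± 0.723 CPM in IF16 and 5.63 ± 0.364 CPM in AL, and its log2 fold change in EOD was 0.03 (95% interval -0.38 to 0.43, adjusted p = 0.923). As a share of the summed FPKM of the family, Ppara made up 67.4% to 76.8% in EOD, 60.1% to 66.5% in IF16 and 39.9% to 56.7% in AL. The 3 ranges did not overlap.

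**Figure D3:**
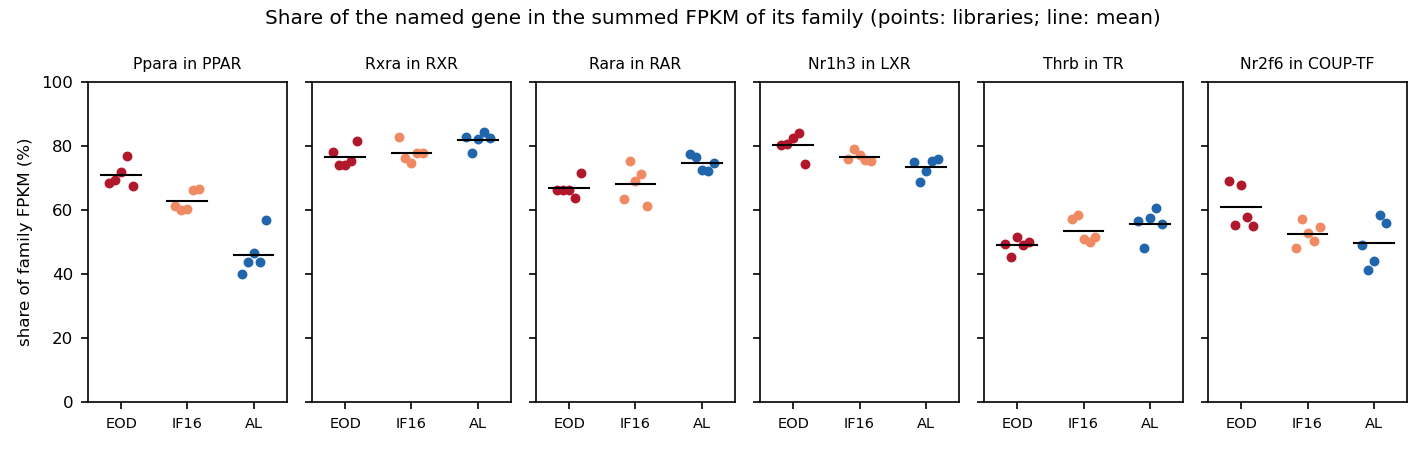
Share (%) of the named gene in the summed FPKM of its receptor family, 1 point per library and a line at the mean, for EOD, IF16 and AL. Ppara averages 70.7% in EOD, 62.9% in IF16 and 46.1% in AL, and Rxra 76.5% in EOD, 77.8% in IF16 and 81.9% in AL.

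The RXR genes encode the shared partner of these receptors. Rxra, the main liver form, was at 285, 196, 198, 192 and 302 CPM in EOD, 282, 196, 190, 235 and 234 CPM in IF16, and 276, 224, 254, 283 and 269 CPM in AL. The groups overlapped broadly, and the log2 fold change of EOD against AL was -0.16 (95% interval -0.47 to 0.16, adjusted p = 0.421). Rxrb was at 39.4, 31.2, 34.3, 30.1 and 32.5 CPM in EOD, 27.5, 25.4, 28.8, 31.0 and 31.3 CPM in IF16, and 23.3, 27.6, 24.3, 23.5 and 25.8 CPM in AL. No EOD library reached down to AL, and Rxrb rose by 0.43 in log2 (SE 0.09, adjusted p = 0.00225), a call kept in all 25 alternatives. Rxrg, the least abundant RXR here, averaged 3.22 ± 0.744 CPM in EOD, 4.24 ± 0.91 CPM in IF16 and 4.69 ± 1.10 CPM in AL. Its decrease in EOD (-0.54, SE 0.19, adjusted p = 0.0397) was not stable, since it was lost when any of AL replicates 1 and 2 or EOD replicates 1, 3, 4 and 5 was left out, with adjusted p reaching 0.133.

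Among the retinoic acid receptors Rara was lower in EOD. It was at 17.1, 16.0, 16.4, 12.3 and 20.7 CPM in EOD, 19.1, 21.3, 17.1, 18.5 and 16.1 CPM in IF16, and 25.3, 30.4, 22.2, 15.5 and 22.1 CPM in AL. AL replicate 4, at 15.5 CPM, lay within the EOD range. The log2 fold change was -0.49 (SE 0.16, adjusted p = 0.0223) and no longer passed without AL replicate 1, AL replicate 2 or EOD replicate 4, with adjusted p reaching 0.0701. Rarb and Rarg, the other two retinoic acid receptors, averaged 2.19 ± 0.281 and 4.93 ± 0.627 CPM in EOD, 2.01 ± 0.323 and 5.65 ± 1.34 CPM in IF16, and 1.91 ± 0.415 and 4.92 ± 0.748 CPM in AL and did not pass in EOD against AL (adjusted p = 0.423 and 0.99). The exons of Rarb overlap those of Top2b on the other strand by 34.1% of their length. Top2b averaged 29.0 CPM against 2.03 CPM for Rarb. The sources used here do not state whether counting was by strand, and reads of overlapping genes cannot be told apart.

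The thyroid hormone receptors did not pass in EOD against AL. Thrb, the main thyroid hormone receptor of liver, averaged 20 ± 1.63 CPM in EOD, 18.8 ± 2.81 CPM in IF16 and 21.6 ± 1.41 CPM in AL (log2 fold change -0.11, 95% interval -0.34 to 0.12, adjusted p = 0.426 in EOD against AL). Thra averaged 8.40 ± 1.12 CPM in EOD, 6.58 ± 0.974 CPM in IF16 and 6.98 ± 0.87 CPM in AL (0.27, 95% interval -0.02 to 0.55, adjusted p = 0.119). Its exons overlap those of the clock receptor gene Nr1d1 on the other strand by 5.7% of their length. Nr1d1 averaged 25.9 CPM against 7.32 CPM for Thra. It did not pass in EOD (-0.59, adjusted p = 0.173) or IF16 (-1.22, adjusted p = 0.0547) against AL.

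The oxysterol receptors, which govern sterol export and lipid synthesis, were not both called. Nr1h2 (LXR beta; chromosome 7, 44549616 to 44553951) was at 28.7, 27.1, 24.2, 22.3 and 30.6 CPM in EOD, 29.0, 26.9, 28.0, 32.9 and 30.6 CPM in IF16, and 32.1, 41.1, 36.7, 33.2 and 32.1 CPM in AL. All EOD libraries lay below all AL libraries, and Nr1h2 fell by 0.40 in log2 (SE 0.10, adjusted p = 0.00714), a call kept in all 25 alternatives. Nr1h3 was at 115, 111, 114, 117 and 87.7 CPM in EOD, 90.8, 101, 94.0, 100 and 91.6 CPM in IF16, and 95.6, 90.2, 94.4, 101 and 101 CPM in AL. EOD replicate 5 lay below all AL libraries and the other 4 EOD libraries above all of them. The log2 fold change of Nr1h3 was 0.18 (SE 0.09, adjusted p = 0.134) with EOD replicate 5 and 0.25 (adjusted p = 0.0152) without it.

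Nr1h4, the bile acid receptor FXR (chromosome 10, 89454234 to 89533585), was at 74.6, 117, 86.7, 111 and 98.6 CPM in EOD, 125, 123, 143, 129 and 127 CPM in IF16, and 131, 138, 110, 111 and 115 CPM in AL. The EOD libraries lay below every IF16 library and overlapped AL at 110 to 117 CPM. Its decrease against AL passed narrowly (-0.31, SE 0.12, adjusted p = 0.0467) and held in 8 of 25 alternatives. With AL replicates 4 and 5 removed it was -0.35 with an adjusted p of 0.0695, and leaving out 1 library ended it except for AL replicates 3 and 4 and EOD replicates 2 and 4 (adjusted p up to 0.125). Nr1h5, the second FXR gene of the mouse, averaged 2.13 ± 0.747 CPM in EOD, 3.36 ± 0.378 CPM in IF16 and 2.38 ± 1.48 CPM in AL (adjusted p = 0.724 in EOD against AL).

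Of the receptors for foreign compounds, Nr1i3 (CAR; chromosome 1, 171213970 to 171220701) was higher under both fasting regimens. It was at 92.5, 113, 132, 121 and 182 CPM in EOD, 121, 149, 134, 118 and 119 CPM in IF16, and 73.3, 110, 74.3, 50.3 and 54.1 CPM in AL. AL replicate 2, at 110 CPM, was the only AL library that reached into the EOD range, and AL replicates 4 and 5 were the lowest libraries. Nr1i3 rose 1.77 fold in EOD (log2 fold change 0.82, SE 0.20, adjusted p = 0.00387), and by 0.60 without AL replicates 4 and 5 (adjusted p = 0.0244). The exons of Nr1i3 overlap those of Tomm40l, a mitochondrial import gene on the other strand, by 74.9% of their length. Tomm40l, with a mean of 7.1 CPM against 110 CPM for Nr1i3, was itself higher in EOD (0.70, adjusted p = 0.0106) and in IF16 (1.37, adjusted p = 0.000968), and the part of shared reads was not tested. Nr1i2 (PXR) was at 96.9, 71.7, 82.9, 89.6 and 118 CPM in EOD, 107, 103, 100, 117 and 111 CPM in IF16, and 71.7, 89.0, 95.9, 73.0 and 81.9 CPM in AL. EOD and AL overlapped, with a log2 fold change of 0.16 (95% interval -0.11 to 0.42, adjusted p = 0.327). The vitamin D receptor Vdr, of the same branch, had no count in 4 of 5 EOD libraries and at most 2 counts in any library, and was too low to test.

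Nr0b2 (SHP; chromosome 4, 133553376 to 133556536), an FXR target that feeds back on bile acid synthesis, was at 72.5, 74.8, 49.5, 61.4 and 57.1 CPM in EOD, 61.0, 40.9, 39.7, 55.4 and 40.3 CPM in IF16, and 49.7, 31.2, 20.5, 12.7 and 40.8 CPM in AL. The lowest EOD library stood just under the highest AL library. Nr0b2 rose 2.03 fold in EOD (log2 fold change 1.02, SE 0.28, adjusted p = 0.0115), the largest increase among the receptors, and leaving out single libraries gave 0.83 to 1.28 with the call kept each time. In IF16 the log2 fold change was 0.61 (SE 0.28, adjusted p = 0.254).

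**Figure D4:**
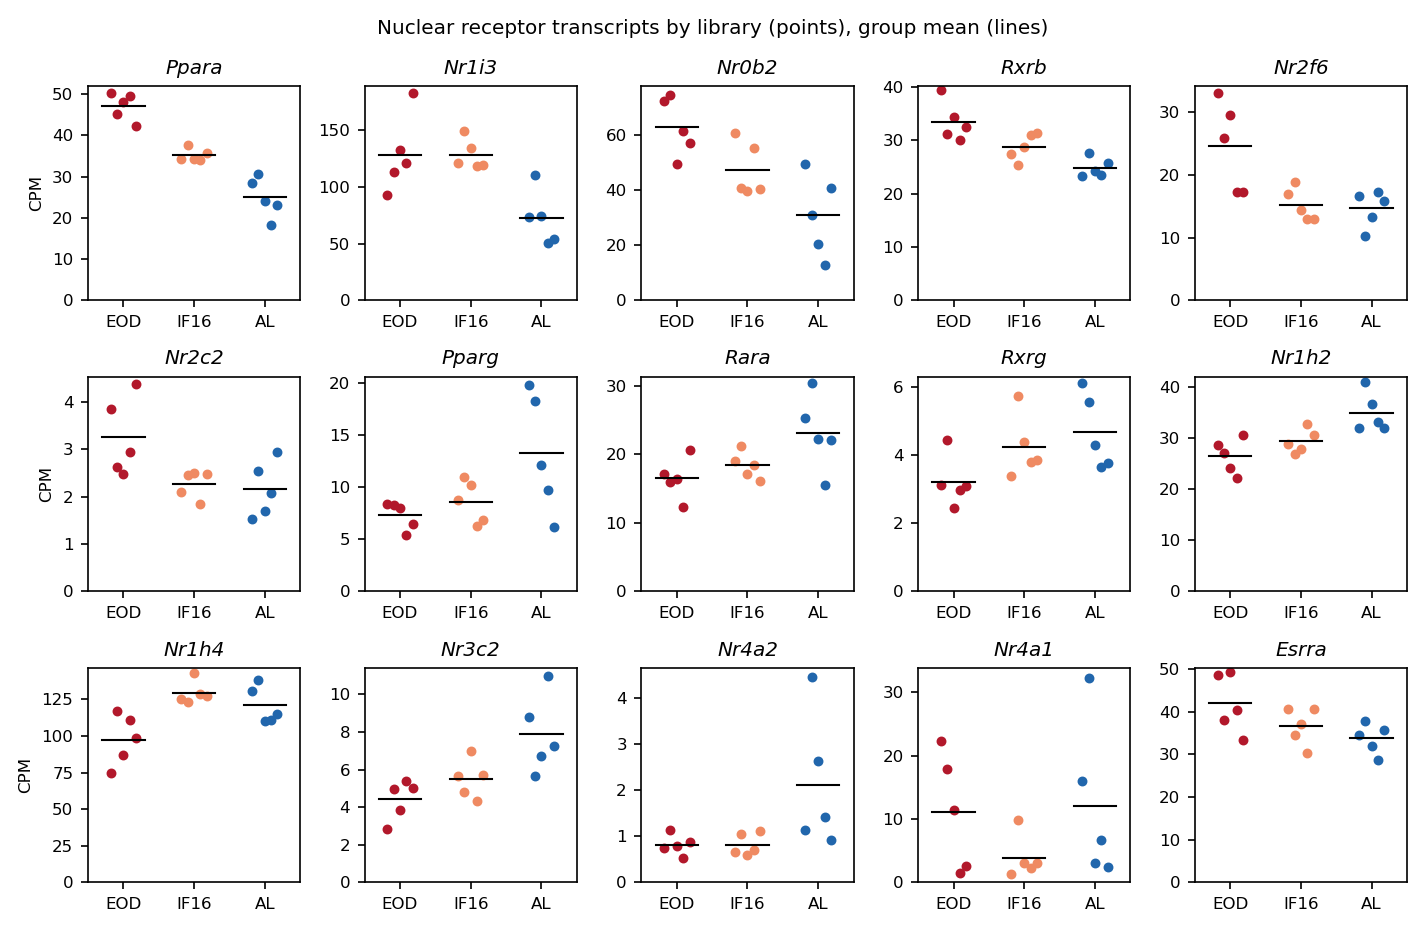
CPM of the 13 receptors called in EOD versus AL, and of Nr4a1 and Esrra, by library (points) with the group mean (line), for EOD, IF16 and AL. Ppara shows 3 separate levels, and the spread of Nr4a1 within each group exceeds the differences between EOD and AL.

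The orphan receptors Nr2f6 and Nr2c2 were higher in EOD. Nr2f6 (EAR2), of the COUP-TF family of mostly repressive factors, was at 33, 25.8, 29.5, 17.2 and 17.2 CPM in EOD, 17.0, 18.9, 14.4, 13.0 and 13.0 CPM in IF16, and 16.6, 10.3, 13.3, 17.3 and 15.8 CPM in AL. EOD replicates 1 to 3 lay above all other libraries, while EOD replicates 4 and 5 matched the top of AL. The log2 fold change was 0.74 (SE 0.19, adjusted p = 0.006), a call kept in all 25 alternatives. The exons of Nr2f6 overlap those of Ocel1 on the other strand by 54.4% of their length. Ocel1 averaged 13.6 CPM against 18.2 CPM for Nr2f6 and did not pass (-0.10, adjusted p = 0.54). Nr2f2 (COUP-TFII) averaged 28.2 ± 5.80 CPM in EOD, 25.2 ± 5.37 CPM in IF16 and 27.2 ± 4.17 CPM in AL, and Nr2f1 averaged 0.683 ± 0.182 CPM in EOD, 0.809 ± 0.175 CPM in IF16 and 0.587 ± 0.288 CPM in AL. Neither passed in EOD against AL (adjusted p = 0.814 and 0.633).

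Nr2c2 (TR4) averaged 3.26 ± 0.825 CPM in EOD, 2.28 ± 0.296 CPM in IF16 and 2.16 ± 0.583 CPM in AL. Its increase in EOD (log2 fold change 0.60, SE 0.21, adjusted p = 0.0322) was lost when AL replicate 1, 3 or 4 was left out, or EOD replicate 1 or 5, with adjusted p reaching 0.0799, and 30.7% of its exonic length is shared with Mrps25 on the other strand. The related Nr2c1 (TR2) averaged 10.9 ± 0.996 CPM in EOD, 10.5 ± 1.59 CPM in IF16 and 13.4 ± 1.78 CPM in AL and missed the threshold in EOD (-0.30, adjusted p = 0.0723). Without AL replicates 4 and 5 its log2 fold change was -0.18 (adjusted p = 0.376).

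The oestrogen-related receptors act on mitochondrial genes without a known natural hormone. Esrra was at 48.6, 38.1, 49.2, 40.3 and 33.4 CPM in EOD, 40.6, 34.6, 37.1, 30.4 and 40.7 CPM in IF16, and 34.5, 37.9, 31.9, 28.7 and 35.6 CPM in AL. EOD replicates 1 and 3 stood highest and EOD replicate 5 within AL. The test ended at the threshold without passing it (log2 fold change 0.31, SE 0.12, adjusted p = 0.05), and 7 alternatives passed. Esrrg averaged 1.73 ± 0.697 CPM in EOD, 2.85 ± 0.619 CPM in IF16 and 1.84 ± 0.813 CPM in AL (adjusted p = 0.866 in EOD against AL). Nr6a1, the germ cell nuclear factor, averaged 5.80 ± 2.18 CPM in EOD, 5.82 ± 0.284 CPM in IF16 and 5.80 ± 1.01 CPM in AL, with a log2 fold change of 0.00 (95% interval -0.42 to 0.42) in EOD against AL. Hnf4g had 0 to 7 counts per library and was not tested.

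Of the steroid receptors, Nr3c2, which binds mineralocorticoids and glucocorticoids (chromosome 8, 76899442 to 77245012), was lower in EOD. It was at 2.86, 4.98, 3.87, 5.37 and 5.04 CPM in EOD, 5.64, 4.82, 7, 4.35 and 5.72 CPM in IF16, and 8.78, 5.66, 6.72, 11 and 7.26 CPM in AL. No EOD library reached the lowest AL library. The log2 fold change was -0.84 (SE 0.20, adjusted p = 0.00367) and kept its call in all 25 alternatives. It was -0.41 in limma on log2(FPKM + 1), where the pseudocount understates changes of low genes. The glucocorticoid receptor Nr3c1, a driver of gluconeogenic genes, averaged 43.6 ± 5.43 CPM in EOD, 38.3 ± 2.63 CPM in IF16 and 39.8 ± 5.63 CPM in AL (log2 fold change 0.13, 95% interval -0.11 to 0.37, adjusted p = 0.366 in EOD against AL). The oestrogen receptor Esr1 averaged 5.47 ± 1.19 CPM in EOD, 7.51 ± 3.74 CPM in IF16 and 7.40 ± 2.52 CPM in AL (-0.44, 95% interval -1.07 to 0.20, adjusted p = 0.258).

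The NR4A receptors are immediate early genes that act without a known ligand, and Nr4a1 is known to respond to glucagon signalling in liver. Nr4a1 was at 22.4, 17.9, 11.5, 1.52 and 2.63 CPM in EOD, 1.26, 9.86, 3.06, 2.32 and 3.02 CPM in IF16, and 16.0, 32.3, 3.00, 6.74 and 2.46 CPM in AL. EOD and AL each held libraries above 10 CPM and below 3 CPM. The log2 fold change was -0.11 with a 95% interval of -1.95 to 1.73 (adjusted p = 0.934). A several-fold change in either direction is not excluded by this interval. Nr4a2 was at 0.754, 1.13, 0.782, 0.53 and 0.877 CPM in EOD, 0.661, 1.04, 0.591, 0.693 and 1.11 CPM in IF16, and 1.14, 4.45, 2.64, 1.42 and 0.911 CPM in AL. The 2 fasting groups stood at about the same level, and AL replicates 2 and 3 stood highest. Nr4a2 was lower in EOD than in AL (log2 fold change -1.36, SE 0.38, adjusted p = 0.00965). The size rests partly on AL replicate 2, without which it was -0.90 (adjusted p = 0.0392). In limma on log2(FPKM + 1) without a minimum, Nr4a2 did not pass (-0.34, adjusted p = 0.0755).

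The second comparison asked how a daily 16-h fast changed the receptors relative to free feeding. Ppara and Nr1i3 rose in IF16, and no receptor passed as lower in edgeR. These 2 of 31 receptors (6.45%) compare with 3.5% of all genes (1.4% higher and 2.1% lower), and so small a count does not set the receptors apart. Ppara rose 1.41 fold (log2 fold change 0.49, SE 0.11, adjusted p = 0.0222) and Nr1i3 1.77 fold (0.83, SE 0.20, adjusted p = 0.0255), each with all 5 IF16 libraries above all AL libraries. Groups without overlap were also seen for Nr1i2, which missed the threshold (0.38, SE 0.12, adjusted p = 0.0904), and made up 5.78% of all genes. Neither call held once AL replicates 4 and 5 were removed, with a Ppara change of 0.34 (adjusted p = 0.109) and an Nr1i3 change of 0.59 (adjusted p = 0.114). The call of Ppara was also lost with any of AL replicates 3 and 5 and IF16 replicates 2, 3 and 5 left out, its adjusted p reaching 0.0691. That of Nr1i3 was lost with any of AL replicates 4 and 5 and IF16 replicates 2, 3 and 5 left out, its adjusted p reaching 0.0754.

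Among the receptors that missed the threshold in IF16, Nr4a2 was closest. Its log2 fold change was -1.36 (SE 0.37, adjusted p = 0.0527), and -1.73 without AL replicates 4 and 5 (adjusted p = 0.0151). Pparg was at -0.62 (adjusted p = 0.206) and at -0.95 without these 2 libraries (adjusted p = 0.0196). In all, 10 receptors had an unadjusted p under 0.05, and the median log2 fold change of the 31 receptors was 0.00. The comparisons of EOD and of IF16 with AL share the AL libraries, so that their changes are not independent of each other.

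The third comparison set the 2 fasting regimens against each other. The AL libraries enter it through the choice of tested genes, the scaling between libraries and the shared estimate of spread. A fit of the EOD and IF16 libraries alone called 4 receptors. Ppara and Nr2f6 were higher in EOD than in IF16 and Nr1h4 was lower. These 3 of 31 receptors (9.68%) compare with 16.1% of all genes (7.96% higher and 8.15% lower). Ppara was 1.34 fold higher in EOD (log2 fold change 0.42, SE 0.11, adjusted p = 0.0178) and kept its call in all 25 alternatives. Nr1h4 was 1.33 fold lower in EOD (-0.41, SE 0.12, adjusted p = 0.0242), which was lost when IF16 replicate 3, EOD replicate 1 or EOD replicate 3 was left out, with adjusted p reaching 0.0728. Nr2f6 was 1.61 fold higher in EOD (0.69, SE 0.19, adjusted p = 0.02), which was lost when IF16 replicate 5 or EOD replicate 1 was left out, with adjusted p reaching 0.0659. EOD and IF16 libraries did not overlap for Ppara and Nr1h4, against 10.9% of all genes. For Nr1i3 the log2 fold change between the regimens was 0.00 (95% interval -0.42 to 0.42, adjusted p = 0.994).

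Genes known as targets of the receptors were counted next. Over all tested genes, 17.6% were higher and 17.6% lower in EOD than in AL, 1.4% and 2.1% in IF16 than in AL, and 7.96% and 8.15% in EOD than in IF16. Of 23 PPARA targets 19 were higher and 1 lower in EOD than in AL, with a median log2 fold change of 0.90 against -0.01 over all genes. On removing AL replicates 4 and 5, 17 were higher and 1 lower with a median of 0.81. Acot1, an acyl-CoA thioesterase with close copies, averaged 184 ± 57.4 CPM in EOD and 10.4 ± 4.67 CPM in AL (log2 fold change 4.14, SE 0.35, adjusted p = 1.84e-06). Ehhadh, of peroxisomal oxidation, averaged 691 ± 236 CPM in EOD and 147 ± 46.3 CPM in AL (2.23, SE 0.26, adjusted p = 1.49e-05). Acadm, a mitochondrial acyl-CoA dehydrogenase, averaged 565 ± 69.3 CPM in EOD and 273 ± 51.0 CPM in AL (1.05, SE 0.13, adjusted p = 1.81e-05). Fabp1, the liver fatty acid binding protein, was the 1 gene that fell (-0.83, SE 0.18, adjusted p = 0.00221). In IF16 against AL 2 of the 23 were higher and none lower, with a median of 0.34 (2 higher, 1 lower and a median of 0.20 without AL replicates 4 and 5) and 14 at an unadjusted p under 0.05. The 2 called were Acot1 at 1.89 (SE 0.32, adjusted p = 0.00561) and the lipase inhibitor Angptl4 at 1.09 (SE 0.25, adjusted p = 0.0253). Angptl4 no longer passed with AL replicate 2 or any of IF16 replicates 2 to 5 left out, its adjusted p reaching 0.0739. In EOD against IF16, 14 were higher and 1 lower, with a median of 0.63.

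Of 18 tested CAR and PXR targets 8 were higher and 3 lower in EOD than in AL, with a median log2 fold change of 0.44, and 7 and 3 without AL replicates 4 and 5. Of all genes 17.6% were called in each direction. Cyp3a11, a drug-metabolising P450 with close copies, averaged 7730 ± 1130 CPM in EOD and 2450 ± 202 CPM in AL (1.66, SE 0.16, adjusted p = 1.35e-06). Slco1a4, an organic anion transporter, averaged 75.6 ± 17.3 CPM in EOD and 27 ± 7.26 CPM in AL (1.48, SE 0.18, adjusted p = 1.68e-05). Gstm3, a glutathione transferase of the list with close copies, averaged 6.18 ± 1.31 CPM in EOD and 47.9 ± 8.20 CPM in AL and fell by 2.95 in log2 (SE 0.17, adjusted p = 8.43e-09). In IF16 against AL, 2 were higher and none lower, with a median of 0.39, beside 1.4% of all genes higher and 2.1% lower. Slco1a4 rose by 1.05 (SE 0.18, adjusted p = 0.00367), and Cyp3a11 by 0.67 (SE 0.15, adjusted p = 0.0209). Cyp3a11 did not pass with AL replicates 4 and 5 removed (adjusted p = 0.0644). That fit called 3 genes of the list higher and none lower, with a median of 0.53. The call of Cyp3a11 was also lost with AL replicate 4, IF16 replicate 2 or IF16 replicate 3 alone removed, where adjusted p reached 0.0734.

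FXR and LXR targets were mixed, beside 17.6% of all genes called in each direction in EOD against AL. Of 9 tested genes of the FXR list, which holds genes that FXR raises as well as genes it lowers, 4 were higher and 1 lower in EOD than in AL (median 0.50). The phospholipid exporter Abcb4 rose (log2 fold change 0.91, SE 0.12, adjusted p = 2.21e-05), and so did the bile acid ligase Slc27a5 (0.52, SE 0.09, adjusted p = 0.000465). Cyp7a1, the rate-limiting enzyme of bile acid synthesis, averaged 18.8 ± 3.79 CPM in EOD and 49.3 ± 13.2 CPM in AL (-1.39, SE 0.27, adjusted p = 0.00113). Cyp8b1, of the same list, went the other way, with 444 ± 92.7 CPM in EOD and 251 ± 88 CPM in AL (0.83, SE 0.24, adjusted p = 0.0137). In IF16 1 FXR list gene was higher and 1 lower, the ligase Slc27a5 (0.35, adjusted p = 0.0458) and the bile salt export pump Abcb11 (-0.41, adjusted p = 0.0327). Neither call was kept without AL replicates 4 and 5 (adjusted p = 0.114 and 0.105). Of 11 LXR targets, among them Cyp7a1 again, 2 were higher and 5 lower in EOD than in AL (median -0.27), and 2 and 4 without AL replicates 4 and 5. Srebf1, the regulator of lipid synthesis, averaged 28.3 ± 8.60 CPM in EOD and 315 ± 143 CPM in AL (-3.48, SE 0.37, adjusted p = 1.3e-05). Mylip, a ligase that degrades the LDL receptor, rose (1.45, SE 0.17, adjusted p = 1.35e-05), and so did the phosphodiesterase Smpdl3a (1.11, SE 0.21, adjusted p = 0.000747). In IF16, Mylip rose by 0.78 (adjusted p = 0.018, and 0.0872 without AL replicates 4 and 5), and it did not pass with IF16 replicate 2 left out either (adjusted p = 0.0558). Srebf1 was lower in IF16 (-1.34, adjusted p = 0.0441), a call kept in 6 of the 15 fits that left out 1 library (adjusted p up to 0.115).

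The lists of the hormone receptors are short, and 35.2% of all genes were called in EOD against AL. Of 6 thyroid hormone targets, 1 was higher and 3 lower in EOD than in AL (median -0.60), and none passed in IF16, where 1 had an unadjusted p under 0.05. Thrsp, a lipogenic protein, averaged 15.9 ± 5 CPM in EOD and 1070 ± 514 CPM in AL (-6.07, SE 0.60, adjusted p = 1.17e-05), while the transcription factor Klf9 rose (1.74, SE 0.32, adjusted p = 0.000888). Gpd2, the mitochondrial glycerophosphate dehydrogenase, was lower in EOD (-0.71, adjusted p = 0.00178) and at -0.36 in IF16 (adjusted p = 0.213). Of 5 tested retinoid targets 2 were higher and 1 lower in EOD than in AL, and 1 and 2 without AL replicates 4 and 5. Cyp26b1, which degrades retinoic acid, rose (2.03, SE 0.48, adjusted p = 0.00523). The retinal reductase Dhrs3 rose (0.38, adjusted p = 0.017), but did not pass with EOD replicate 2 removed (adjusted p = 0.0537) or with AL replicates 4 and 5 removed (adjusted p = 0.0721). The transglutaminase Tgm2 was lower in EOD (-0.63, adjusted p = 0.00132) and in IF16 (-0.90, adjusted p = 0.00102). Without AL replicates 4 and 5 its log2 fold change was -0.35 in EOD (adjusted p = 0.0182) and -0.64 in IF16 (adjusted p = 0.00402). Of 12 glucocorticoid targets 3 were higher and none lower in EOD than in AL (median 0.14), and 6 were higher without AL replicates 4 and 5 (median 0.87). They were the kinase Sgk1 (1.29, SE 0.21, adjusted p = 0.000213), the tryptophan dioxygenase Tdo2 (0.94, SE 0.16, adjusted p = 0.000262) and the EGF receptor inhibitor Errfi1 (0.54, SE 0.15, adjusted p = 0.012). In IF16 Sgk1 alone rose (0.79, adjusted p = 0.0406), a call kept in 5 of 15 fits without 1 library (adjusted p up to 0.125) and lost without AL replicates 4 and 5 (0.157).

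Coregulators, which carry the repressing and activating complexes, and the enzymes that make or remove ligands were counted last, beside 35.2% of all genes called in EOD against AL. Of 18 coregulators 1 was higher and 3 lower in EOD than in AL (median -0.06), and none and 2 without AL replicates 4 and 5. Hdac3, the deacetylase of the corepressor complex, fell by 0.27 in log2 (adjusted p = 0.0201), which was lost with AL replicate 1, AL replicate 2 or EOD replicate 2 removed, adjusted p reaching 0.0532. Nrip1, a corepressor of ligand-bound receptors, rose by 0.40 (adjusted p = 0.0273), which was lost with any of AL replicates 1 and 5 and EOD replicates 1 and 2 removed, adjusted p reaching 0.0789, and with AL replicates 4 and 5 both removed (adjusted p = 0.0695). In IF16 no coregulator passed in edgeR, and 3 had an unadjusted p under 0.05. The coactivator Ncoa1 had the smallest p (-0.41, adjusted p = 0.0615). Of 15 tested genes of ligand supply 3 were higher and 1 lower in EOD than in AL (median 0.08), and 3 and 2 without AL replicates 4 and 5. Rbp4, the plasma carrier of retinol, rose (0.73, SE 0.11, adjusted p = 0.000137), as did Hsd11b1, which regenerates active glucocorticoid (0.55, SE 0.12, adjusted p = 0.0018). The alcohol dehydrogenase Adh1, which oxidises retinol, fell (-0.51, SE 0.09, adjusted p = 0.00034). In IF16, Hsd11b1 and Rbp4 rose by 0.58 (adjusted p = 0.0108) and 0.43 (adjusted p = 0.0412). Neither passed with AL replicates 4 and 5 removed (adjusted p = 0.061 and 0.0924), and that of Rbp4 was kept in 4 of 15 fits without 1 library.

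**Figure D5:**
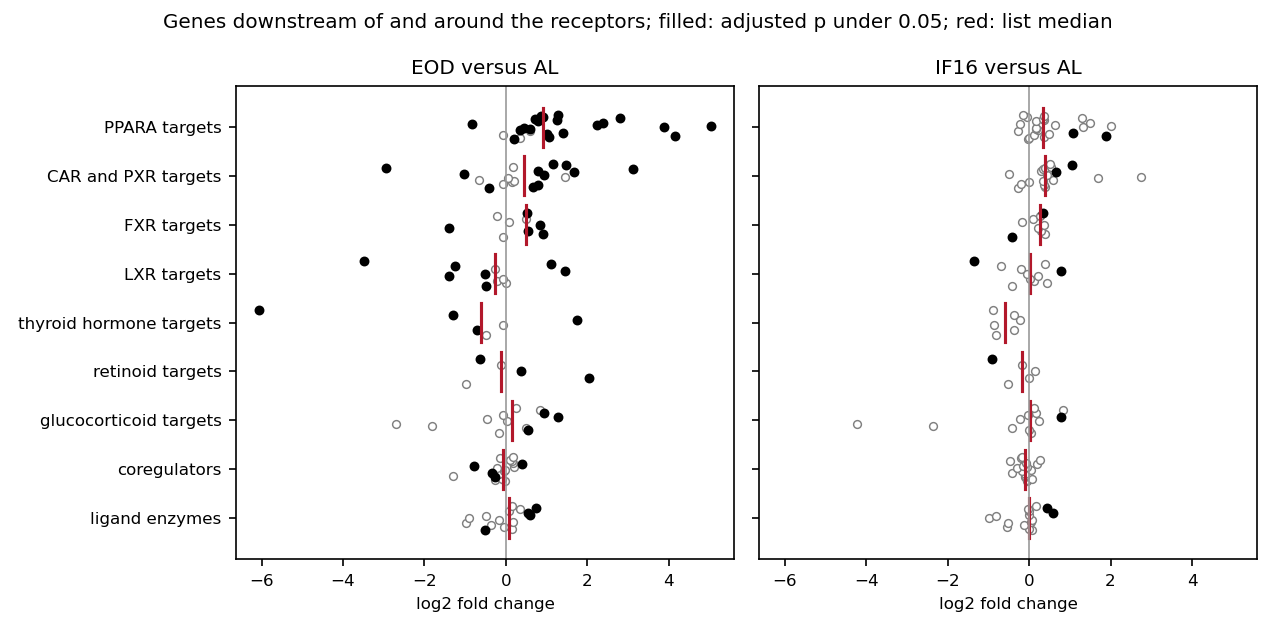
Log2 fold change of each tested gene of 9 lists of receptor targets, coregulators and ligand enzymes, in EOD versus AL (left) and IF16 versus AL (right). Filled points passed at an adjusted p under 0.05 and red lines mark list medians; the PPARA targets have medians of 0.90 and 0.34.

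Markers of other liver cells were counted in the same way, beside 17.6% of all genes called in each direction in EOD against AL. Of 12 stellate cell markers 5 were higher and 1 lower in EOD than in AL (median log2 fold change 0.3). They summed to 365 to 509 CPM in EOD and 238 to 395 CPM in AL, where replicates 4 and 5 both stood at 238 CPM. Of 10 Kupffer cell markers 1 was higher, of 6 tested cholangiocyte markers 2 were higher, of 8 lymphocyte markers 1 was lower and of 3 tested neutrophil markers 3 were lower. Without AL replicates 4 and 5, 5 stellate markers were higher and 3 lower in EOD (median 0.04). In the same fit 1 Kupffer marker was higher, no cholangiocyte marker passed and 2 lymphocyte markers were lower. In IF16 against AL, 1 of the neutrophil markers was lower, and none of the stellate, Kupffer, cholangiocyte or lymphocyte markers passed in edgeR (3, 0, 1 and 1 at an unadjusted p under 0.05). With these 2 AL libraries removed, 2 stellate markers and 1 lymphocyte marker were lower in IF16. Of the 9 hepatocyte markers 2 were lower and none higher in EOD than in AL (median -0.05), and 2 were lower and 3 higher without AL replicates 4 and 5 (median 0.13). Neutrophil markers summed to 2.03 to 5.83 CPM in EOD, 2.87 to 4.14 CPM in IF16, and 35.3 and 32.6 CPM in AL replicates 4 and 5, and none of them passed without these 2 AL libraries. The part of these cells in the receptor levels was not tested.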

How the data were processed

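The deposited tables give, per Ensembl gene and library, raw read counts and FPKM values, both made by the authors; FPKM were used for levels between genes and in alternatives. Per the submitters' processing notes, the tools included STAR 2.5, HTSeq 0.6.1 and DESeq2 and the build was mm10; no roles are given. The sources used here do not state the strand mode of counting; exonic overlaps were taken from GENCODE vM21. Counts were tested in R 4.3.3 with edgeR 4.0.16: genes kept by filterByExpr (minimum count 10; 13837 genes), TMM scaling, all 15 libraries in 1 fit with a mean per group, quasi-likelihood F test, Benjamini-Hochberg adjustment over all tested genes, threshold 0.05. A gene is called where it passed. Each SE was obtained as |log2 fold change| / sqrt(F), and 95% intervals use 12 residual degrees of freedom. The receptors, the 17 gene lists and the tests were chosen with earlier results of these data known; no list was tested as a set. All 33 receptors are named, and of each target, coregulator and ligand list up to 3 called genes with the smallest p per comparison with AL, or 1 where none passed; 1 gene named by this rule is not reported here. Fabp1, marker lists and overlapping genes were added for the counts, and Cyp8b1 for its direction. Libraries of a group differed far beyond counting noise (chi-square per degree of freedom of at least 23.1 in 30 pairs). Alternatives were DESeq2 1.42.0, its size factors in edgeR, other filters, 2 groups alone, a replicate block, single libraries left out, and limma 3.58.1 on log2 FPKM with pseudocounts of 1 or 0.1. Leaving out AL replicates 4 and 5 was added after the data were seen. Scripts were tested on simulated counts. Promoter windows are from RefSeq on GRCm38.p6, and 30 of 33 receptors matched by symbol.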

Additional observations from a re-analysis of the deposited data

Results flagged for a closer look

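In 6 of 93 sets of 5 libraries, 1 library lay far from the other 4; chance gives about 1 in 20 sets. Nr1h3 was at 87.7 CPM in EOD replicate 5, against 111 to 117 CPM in the other EOD libraries. Nr2f2 was at 38.2 CPM in EOD replicate 2, against 23.1 to 27.3 CPM. Nr4a1 was at 9.86 CPM in IF16 replicate 2, against 1.26 to 3.06 CPM, and Nr2c1 was at 7.76 CPM in IF16 replicate 4, against 10.6 to 11.6 CPM. In AL replicate 2, Nr1h5 was at 4.97 CPM against 1.32 to 2.03 CPM in the other AL libraries, and Nr2c1 was at 10.4 CPM against 13.7 to 14.9 CPM.

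The change against AL differed between the regimens for 3 receptors, by the direct test of EOD against IF16 in edgeR. The log2 difference was 0.42 for Ppara (adjusted p = 0.0178), 0.69 for Nr2f6 (adjusted p = 0.02) and -0.41 for Nr1h4 (adjusted p = 0.0242), with 5 of 5 EOD libraries on the same side of the IF16 mean in each case.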

How the results depend on the processing

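Of 93 pairs of a receptor and a comparison, 18 were called as reported, and none of these changed direction under any alternative. A further 11 were called under at least 1 alternative. Of the 64 pairs never called, 20 took both signs, all with a reported log2 fold change of at most 0.22 in size. In EOD against AL the 13 called receptors became 7 in limma on log2(FPKM + 1) without a minimum and 8 to 14 with 1 library left out. In IF16 against AL the 2 called receptors became 4 with the DESeq2 Wald test, 0 in limma without a minimum and 0 to 3 with 1 library left out. In EOD against IF16 the 3 called receptors became 1 to 6 with 1 library left out. Over all genes, the 484 calls of IF16 against AL became 937 with the DESeq2 Wald test, 261 in limma without a minimum and 241 to 616 with 1 library left out, the 2229 of EOD against IF16 became 1418 to 3347, and the 4867 of EOD against AL 3913 to 5673. The number of receptors at 1 CPM or more was 30 with each library left out. Causes were not tested.

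With the replicate block, 12, 3 and 3 receptors were called in EOD against AL, IF16 against AL and EOD against IF16, and 4809, 492 and 2226 genes. The block ended the call of Nr1h4 in EOD against AL (adjusted p = 0.0528) and gave that of Nr4a2 in IF16 against AL (adjusted p = 0.0495). Correlations of same-numbered deviations ran from -0.14 to 0.23 over 15 pairs, and 6 exceeded 0.1. In 3 of 15 comparisons the own number was the best match. Such weak correlations do not show that the numbers pair the libraries, and they cannot exclude it. Low counts limit what can be said of Vdr, Hnf4g, Nr2f1 and Nr4a2, and the spread between libraries limits Nr4a1.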

Other observations

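The values of other immediate early genes, chosen after those of Nr4a1 were seen, are given by library. In EOD replicates 1 to 5, Nr4a1 was at 22.4, 17.9, 11.5, 1.52 and 2.63 CPM. Egr1 was at 7.64, 6.97, 6.22, 4.70 and 6.2 CPM in the same libraries, in the same rank order, and Fos at 0.572, 0.523, 0.497, 0.895 and 0.689 CPM, with the highest value where Nr4a1 was lowest. In IF16 replicates 1 to 5, Nr4a1 was at 1.26, 9.86, 3.06, 2.32 and 3.02 CPM. Egr1 was at 6.22, 4.39, 2.99, 4.45 and 5.24 CPM there, with its highest value where Nr4a1 was lowest. Fos had its highest IF16 value, 1.02 CPM, in the same library. In AL replicates 1 to 5, Nr4a1 was at 16.0, 32.3, 3, 6.74 and 2.46 CPM and Fos at 2.12, 3.90, 0.685, 3.04 and 1.48 CPM, both highest in replicate 2. Egr1 was at 6.69, 12.9, 2.97, 112 and 5.37 CPM in these AL libraries, with its highest value in replicate 4. Junb lay between 16.7 and 23.8 CPM in EOD. Of the AL libraries, replicate 4 reached 98.5 CPM and replicate 5 reached 123 CPM, with 14.5 to 34.8 CPM in replicates 1 to 3.

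EOD replicate 5 had a mitochondrial share of 10.08%, the highest of EOD. It also had the lowest EOD value of Nr1h3, at 87.7 CPM, and the highest of Nr1i3, at 182 CPM, and of Nr1i2, at 118 CPM. Without it, 6 receptors rather than 3 were called in EOD against IF16.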
